A study of Arabidopsis thaliana with 12 samples.

Results

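The core histone genes of Arabidopsis thaliana were followed through the first day after the root tip was cut off. They were the 38 loci that encode histones H4, H3, H2A and H2B, taken from 32833 loci with counts, and they were chosen by what they encode and not by their values. RNA had been sequenced from root tissue of 7-day-old Col-0 seedlings in 12 libraries. Seedlings of all groups first spent time on plates with 50 µM CNQX, a blocker of ionotropic glutamate receptors in animals, or on mock plates. For cut roots this pretreatment lasted 1 h. The labels do not say whether the plates used after excision held CNQX. In the cut groups about 130 µm of tip was removed, and about 100 µm of the remaining stump was collected 30 min, 4 h, 14 h or 24 h later, with 1 library for each treatment and time. The design text of the series names an earlier last time than the sample labels, which give 24 h and were followed. The uncut CNQX group and the uncut mock group had 2 libraries each, from about 100 µm of intact tip after 14 h on the plates. Each stump library came from tissue that lay above the piece the uncut libraries hold, so a difference between cut and uncut roots cannot be told apart from a difference in position along the root. Uncut tips were taken only after 14 h, so stumps of 30 min, 4 h and 24 h also differ from them in time of collection. The labels do not give the number of roots per library, and nothing in them says whether the 2 uncut libraries of a treatment came from separate cultures, so the spread between libraries may be technical.

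Core histones form the protein spool around which DNA is wound, with H3 and H4 at the centre and H2A with H2B on either side. Replication-dependent genes, here the 8 for H4, the 5 for H3.1, the 4 for canonical H2A and the 8 for canonical H2B, are transcribed mostly in S phase, when new DNA has to be packaged. Replacement genes, here the 3 for H3.3 and the 3 for H2A.Z, are transcribed throughout the cell cycle and supply histone to chromatin that is not being replicated. H2A.Z is known from the starts of genes and H2A.W marks heterochromatin, while H2A.X takes part in the response to DNA breaks. In a root, the dividing cells sit in the meristem next to the tip, and cells leave the cycle and differentiate with distance from it.

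H3.1 and H3.3 differ in only a few amino acids, and their genes can be told apart from the DNA. In coding sequence the 5 H3.1 loci and the 3 H3.3 loci, each of 411 bases, were 73.97% to 80.29% identical between the classes and differed at 12 positions where every H3.1 locus had 1 base and every H3.3 locus another. The stretch from base 67 to base 126 of the coding sequence holds 5 of these positions, written in capitals below. It is shown for the H3.1 gene with the highest average count, for the H3.1 gene with the smallest p for excision and for the H3.3 gene with the highest count (TAIR10.1 genome, coding strand, 5′ to 3′).
AT5G65360 (H3.1): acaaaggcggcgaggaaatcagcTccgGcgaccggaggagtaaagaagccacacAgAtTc
AT5G10390 (H3.1): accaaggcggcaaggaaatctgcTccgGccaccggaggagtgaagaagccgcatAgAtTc
AT5G10980 (H3.3): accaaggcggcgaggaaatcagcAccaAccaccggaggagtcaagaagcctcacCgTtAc
The share of 50-base stretches of the transcript that occur once in the genome was 100% for all 3 of these genes. It was at least 97.56% for every core histone gene other than H4. Among the 8 H4 genes it was 100% for HIS4 and AT3G53730, 93.06% for AT5G59970, 91.52% for AT5G59690, 80.62% for AT1G07820, 74.26% for AT3G45930, 72.1% for AT3G46320 and 71.47% for AT1G07660. AT1G07660 and AT1G07820 share 98.08% of their 312 coding bases. Reads from stretches that recur may be missing from the counts of the H4 genes below 100%, and so from the sum over H4.

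Plant histone promoters are known for an octamer, CGCGGATC, and a hexamer, ACGTCA. Both were searched on both strands in the window that runs from 250 bases before to 50 bases after the annotated start of each gene. The octamer stood in 9 of 38 core histone promoters (23.7%) and in 40 of 27443 promoters of all protein-coding genes (0.146%). It was present in 3 of 5 H3.1, 2 of 8 H4, 2 of 4 canonical H2A and 0 of 8 canonical H2B promoters. The other matches were in 1 of 3 H3.3 promoters (AT4G40040) and 1 of 3 H2A.W promoters (HTA6). The hexamer stood in 8 of 8 canonical H2B promoters, in 12 of 38 core histone promoters (31.6%) and in 9.19% of all. No match of one motif overlapped a match of the other. The 250 bases before the start are shown for 4 genes that recur below, with both motifs in capitals: an H3.1 and a canonical H2A gene with the octamer, an H2B gene that rose, and an H3.3 gene with the hexamer.
AT5G65360 (H3.1, TAIR10.1 chr5:26120582-26120831, minus strand): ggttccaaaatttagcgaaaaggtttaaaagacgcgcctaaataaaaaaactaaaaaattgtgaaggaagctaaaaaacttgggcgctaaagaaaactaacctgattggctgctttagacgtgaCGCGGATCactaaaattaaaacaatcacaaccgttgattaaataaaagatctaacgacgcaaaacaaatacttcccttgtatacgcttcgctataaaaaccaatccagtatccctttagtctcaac
HTA10 (H2A, TAIR10.1 chr1:18926561-18926810, plus strand): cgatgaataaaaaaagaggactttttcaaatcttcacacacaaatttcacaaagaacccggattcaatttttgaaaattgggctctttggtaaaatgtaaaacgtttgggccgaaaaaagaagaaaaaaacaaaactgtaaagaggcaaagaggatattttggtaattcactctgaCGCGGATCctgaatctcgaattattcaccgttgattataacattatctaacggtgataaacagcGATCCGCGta
AT2G28720 (H2B, TAIR10.1 chr2:12326558-12326807, plus strand): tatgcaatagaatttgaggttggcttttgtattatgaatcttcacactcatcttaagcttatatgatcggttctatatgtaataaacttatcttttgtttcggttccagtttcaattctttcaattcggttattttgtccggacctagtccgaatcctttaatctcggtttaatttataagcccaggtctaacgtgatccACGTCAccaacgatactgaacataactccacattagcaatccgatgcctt
AT5G10980 (H3.3, TAIR10.1 chr5:3473571-3473820, minus strand): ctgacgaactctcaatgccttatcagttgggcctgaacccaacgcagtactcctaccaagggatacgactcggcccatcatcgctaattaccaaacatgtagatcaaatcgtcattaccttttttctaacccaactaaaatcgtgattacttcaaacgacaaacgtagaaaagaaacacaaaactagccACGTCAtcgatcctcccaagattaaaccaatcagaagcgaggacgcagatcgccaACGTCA
A match is a string of letters and is not evidence of binding.

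Libraries held 1575446 to 3302325 counts, and the floor of 3 counts came to 0.871 to 1.90 CPM, which are counts scaled to the total of a library. Of the 38 genes, 37 had enough counts to be tested. AT1G08170, an H2B-like gene, had 0 counts in all 12 libraries, which allows up to that floor in each. Mock 24 h differed from the rest: its expression profile correlated with their mean at 0.668, against 0.841 to 0.951 for the other 11, and ribosomal RNA loci took 1.75% of its counts against 5.32% to 10.2%. Markers checked the labelled tissue. Root cap markers summed to 1.95 to 7.94 CPM in early stumps (30 min and 4 h, 4 libraries) and 0 to 1.72 CPM in late stumps (14 h and 24 h, 4 libraries), against 11.3 to 39.7 CPM in uncut tips.

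Most core histone transcripts fell between the early and the late stumps. In edgeR's quasi-likelihood test across 16820 genes, 22 of 37 histone genes were lower in late than in early stumps and 1, HTA12, was higher, at an adjusted p (Benjamini-Hochberg over all genes tested) under 0.05. Over all genes tested, 19.9% were called, 6.74% lower and 13.2% higher. The median log2 fold change of the histone genes, late over early, was -1.27, against 0.05 for all genes. The fall was called for 18 of 25 replication-dependent genes (median -1.35) and for 2 of 6 replacement genes (median -0.58); the difference between the 2 groups of genes was not tested. In 23 of the 37 genes, 18 of them replication-dependent and 3 of them replacement genes, all 4 late libraries lay below all 4 early ones, a pattern found in 10.4% of all genes tested. In tissue pieces of this kind, fewer dividing cells and less histone RNA per dividing cell cannot be told apart.

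The count of called genes depended on single libraries. It was 2 without the mock 14 h library, 8 without mock 24 h, 9 without mock 30 min, 14 without CNQX 14 h, and 15 without CNQX 30 min or without mock 4 h, and 29 at most. The number of all genes called was also lower in these fits, at 1389 without mock 14 h, 2178 without mock 24 h and 1501 without mock 30 min, against 3348 with all libraries. The median of the histone genes kept its sign, between -1.58 and -1.0, in every alternative fit. AT5G59970 and AT5G10400 were called in all 12 fits that left out 1 library, HTA13 in 11, HTA6 and HTA11 in 9 each, and AT3G53730 in 6. Without mock 14 h the adjusted p was 0.0792 for AT3G46320, 0.0817 for HTB4 and 0.0506 for HTA7, and it was 0.0515 for AT3G46320 without mock 24 h. For AT5G65360 it was 0.075 without mock 30 min, 0.0501 without CNQX 14 h, 0.12 without mock 14 h and 0.0901 without mock 24 h. For HTA2, HTA9 and HTA12 the call was lost without any 1 of CNQX 30 min, mock 30 min, mock 4 h, CNQX 14 h, mock 14 h and mock 24 h, with an adjusted p of at most 0.123, 0.185 and 0.143.

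**Figure D1:**
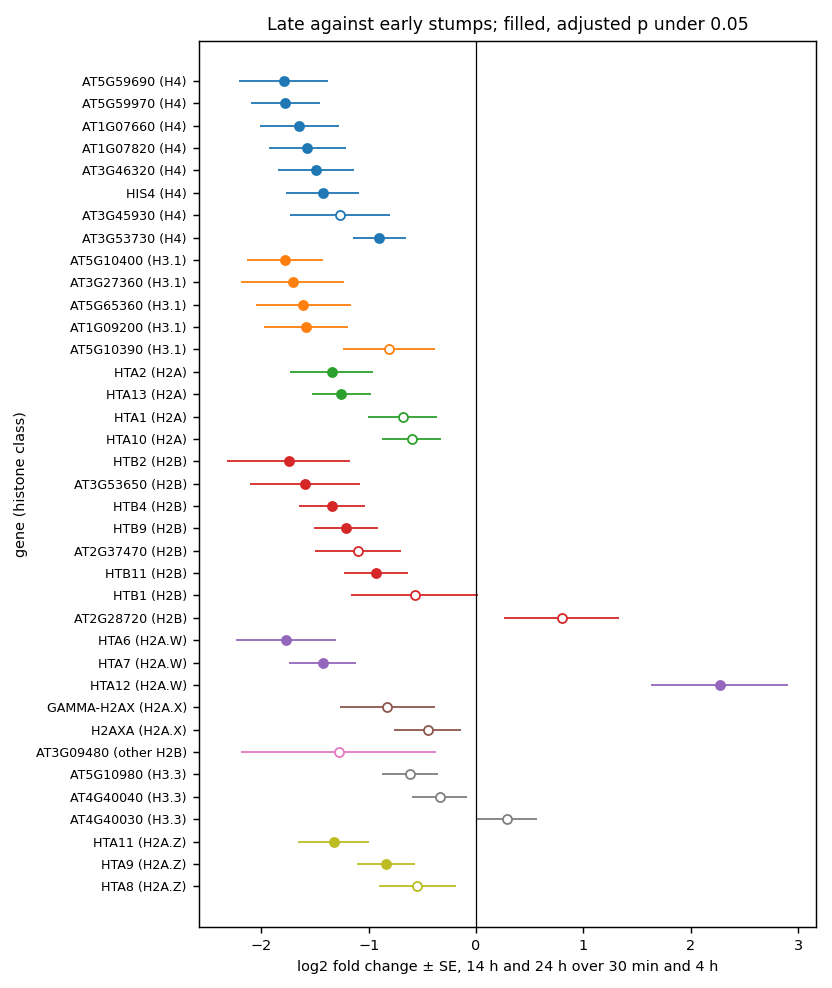
Log2 fold change of 37 core histone genes in late (14 h and 24 h) over early (30 min and 4 h) stumps, with its standard error, grouped by class. Filled circles passed an adjusted p under 0.05; H4 and H3.1 genes lie to the left of 0, H3.3 genes lie around it, and HTA12 is the filled circle to the right.

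All 8 H4 genes had lower values late than early, and 7 passed the test, with a median log2 fold change of -1.53. H4 pairs with H3 at the centre of the spool. AT3G46320, the H4 gene with the highest average count, was at 253 and 101 CPM in the uncut CNQX and 149 and 139.95 CPM in the uncut mock libraries. In the CNQX and mock libraries it was then at 167 and 145 CPM at 30 min, 98.9 and 155 CPM at 4 h, 70.8 and 49.6 CPM at 14 h, and 61.5 and 27.2 CPM at 24 h. All 4 late values lay below all early and all uncut ones, and the log2 fold change of late over early was -1.49 ± 0.35 (SE, adjusted p = 0.0105).

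AT5G59970, the H4 gene with the smallest p for excision and for late against early, was at 149 and 79.9 CPM in uncut CNQX and 81.3 and 77.6 CPM in uncut mock libraries. In the CNQX and mock libraries it was at 112 and 77.1 CPM at 30 min, 68.9 and 105 CPM at 4 h, 38.1 and 25.2 CPM at 14 h, and 31.3 and 15.8 CPM at 24 h. The early libraries overlapped the uncut ones and the late libraries did not overlap either, with a late over early value of -1.78 ± 0.32 (adjusted p = 0.00261). The smallest fall among the called H4 genes was that of AT3G53730, at -0.90 ± 0.25 (adjusted p = 0.021), and AT3G45930 missed the threshold at -1.27 ± 0.47 (adjusted p = 0.0744). Summed over the 8 genes, H4 stood at 373, 279, 335 and 150 CPM in the CNQX 14 h, mock 14 h, CNQX 24 h and mock 24 h libraries. The 4 early libraries held 580 to 825 CPM and the 4 uncut ones 586 to 1099 CPM.

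Of the 5 H3.1 genes, 4 were called lower in late than in early stumps, with a median of -1.61. AT5G65360 was at 248 and 82.7 CPM in uncut CNQX and 121 and 89.5 CPM in uncut mock libraries. With CNQX and with mock it had 151 and 162 CPM at 30 min, 108 and 152 CPM at 4 h, 66.4 and 41.6 CPM at 14 h, and 79.6 and 17.9 CPM at 24 h. The late libraries lay below all others, and late over early was -1.61 ± 0.44 (adjusted p = 0.0216). AT5G10400, which lies 0.578 kb from AT5G10390 with no gene between them, fell by 1.78 ± 0.35 on the log2 scale (adjusted p = 0.00431).

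AT5G10390, the remaining H3.1 gene, was at 55.1 and 31.8 CPM in uncut CNQX and 49.7 and 39.9 CPM in uncut mock libraries. Its CNQX and mock values were 46.8 and 28.9 CPM at 30 min, 12.2 and 31.7 CPM at 4 h, 16.3 and 15.5 CPM at 14 h, and 28.5 and 8.25 CPM at 24 h. Its CNQX 4 h value was already among the late ones, the groups overlapped, and -0.81 ± 0.43 did not pass (adjusted p = 0.213).

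**Figure D2:**
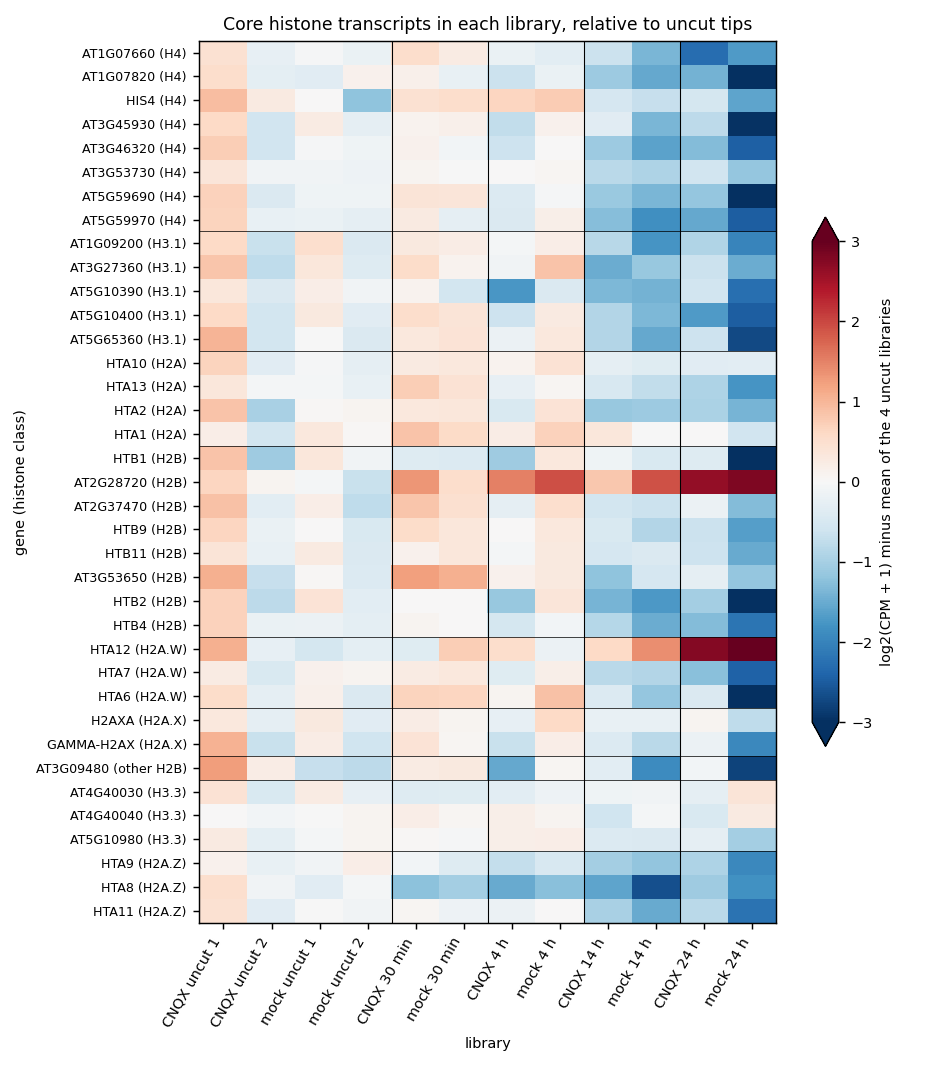
Level of 37 core histone genes in 12 libraries, as log2(CPM + 1) minus the mean of the 4 uncut libraries, with classes separated by horizontal lines and times by vertical lines. The colour scale ends at -3 and 3; late stumps, and mock 24 h most of all, are blue for most genes, and AT2G28720 and HTA12 are red there.

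Canonical H2A and H2B genes, whose products pair with each other, were less uniform. Of the 4 canonical H2A genes, HTA2 and HTA13 were called lower in late than in early stumps, at -1.35 ± 0.39 (adjusted p = 0.0268) and -1.26 ± 0.28 (adjusted p = 0.00727). HTA10, with the highest average count of the 4, was at 191 and 94.8 CPM in uncut CNQX and 118 and 99.7 CPM in uncut mock libraries. After excision the CNQX and mock libraries held 145 and 149.68 CPM at 30 min, 131 and 163 CPM at 4 h, 101 and 93.2 CPM at 14 h, and 95.5 and 97.3 CPM at 24 h. Late libraries were below early ones but within the range of uncut tips or just below it, and -0.60 ± 0.27 did not pass (adjusted p = 0.144). HTA1 did not pass either, at -0.68 ± 0.32 (adjusted p = 0.16). HTA2, which had the smallest p for excision among the 4, was at 82.9 and 22.9 CPM in uncut CNQX and 46.5 and 48.8 CPM in uncut mock libraries. CNQX and mock libraries then held 56.9 and 57.8 CPM at 30 min, 33.1 and 61.4 CPM at 4 h, 20.3 and 21.0 CPM at 14 h, and 23.0 and 16.9 CPM at 24 h, with the late values below all early ones.

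Of the 8 canonical H2B genes, 5 were called lower. HTB4, second to the H3.3 gene AT5G10980 by average count, was at 378 and 202 CPM in uncut CNQX and 206 and 189.57 CPM in uncut mock libraries. In the CNQX and mock libraries it was at 249 and 235 CPM at 30 min, 161 and 219.99 CPM at 4 h, 128 and 83.1 CPM at 14 h, and 94.4 and 50.2 CPM at 24 h. Late and early libraries did not overlap, and late over early was -1.34 ± 0.31 (adjusted p = 0.00886). HTB1 (-0.57 ± 0.59, adjusted p = 0.548) and AT2G37470 (-1.10 ± 0.40, adjusted p = 0.071) did not pass. AT2G28720 is described further on.

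**Figure D3:**
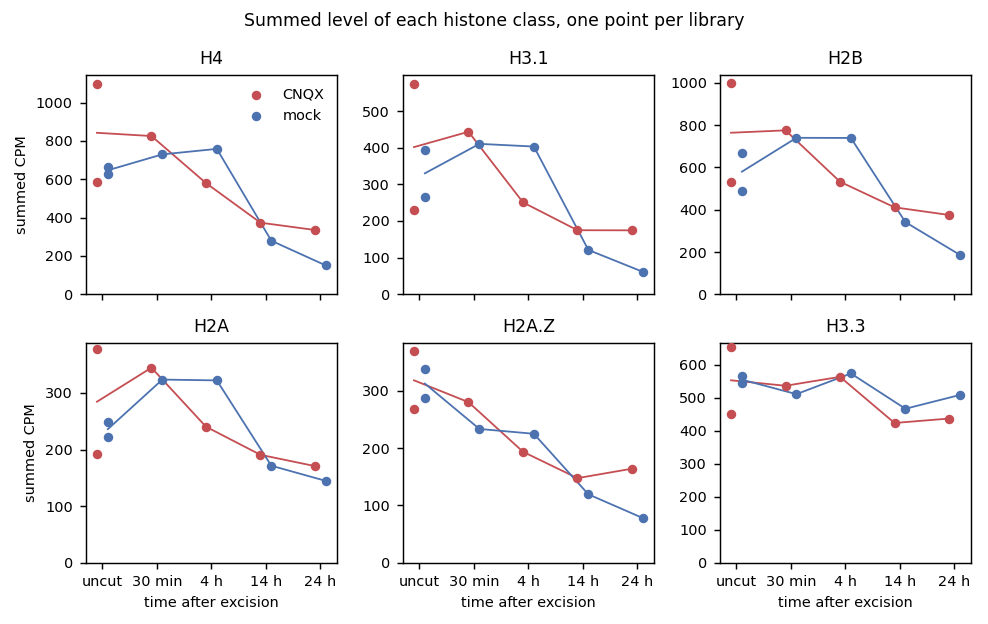
Summed CPM of 6 histone classes over time, with 1 point per library and a line through the mean of each treatment. H4, H3.1 and H2B drop between 4 h and 14 h in both treatments, H2A.Z is already lower at 4 h than in uncut tips, and H3.3 stays between 423 and 655 CPM throughout.

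None of the 3 genes for the replacement histone H3.3 passed the test for late against early stumps. AT5G10980, the H3.3 gene with the highest average count and the smallest p for excision, was at 284 and 192 CPM in uncut CNQX and 223 and 247 CPM in uncut mock libraries. With CNQX and with mock it had 241 and 229.62 CPM at 30 min, 263 and 268 CPM at 4 h, 176 and 172 CPM at 14 h, and 195 and 116 CPM at 24 h. Its late libraries lay below its early ones, with a fall that did not pass the test (-0.61 ± 0.26, adjusted p = 0.118). AT4G40040 and AT4G40030, which lie 0.043 kb apart, had late over early values of -0.34 ± 0.25 (adjusted p = 0.388) and 0.28 ± 0.28 (adjusted p = 0.522). Both genes of this pair lie on the minus strand, so reads that run past the end of one of them cannot be assigned with certainty, even with strand information.

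Per kilobase of transcript, H3.1 averaged 177 ± 73 CPM in late stumps, against 500 ± 114 CPM in early stumps (SD, n = 4 libraries each) and 487 ± 208 CPM in uncut tips (n = 4). H3.3 averaged 460 ± 22 CPM per kilobase in late stumps, against 560 ± 32 CPM in early stumps and 567 ± 90 CPM in uncut tips. The ratio of H3.1 to H3.3 counts within a library was 0.298 ± 0.137 in late stumps, against 0.695 ± 0.175 in early stumps and 0.643 ± 0.182 in uncut tips. The highest late ratio, 0.413 in CNQX 14 h, lay below the lowest early one, 0.445 in CNQX 4 h, and below the lowest uncut one, 0.488. The lowest of all was 0.120 in mock 24 h, and without that library the late ratios began at 0.259. The ratio of all replication-dependent to all replacement counts was 1.56 ± 0.46 in late stumps and 2.70 ± 0.39 in early stumps, with 2.31 ± 0.49 in uncut tips. Its highest late value, 2.01 in CNQX 14 h, lay below all early libraries and above the lowest uncut one, 1.82. Each ratio is taken within a library and so does not depend on its depth or scaling.

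**Figure D4:**
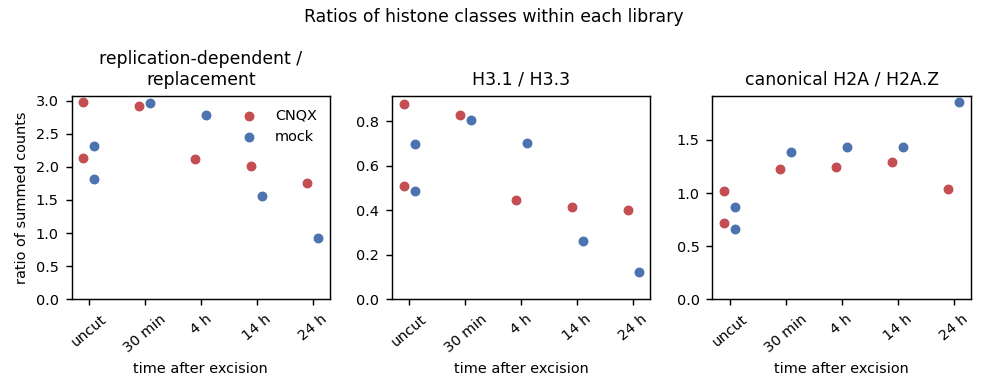
Ratio of summed counts within each library: replication-dependent to replacement genes, H3.1 to H3.3, and canonical H2A to H2A.Z, by time after excision. The H3.1 to H3.3 ratio is at most 0.413 in late stumps and at least 0.445 elsewhere, and the ratio of H2A to H2A.Z is above every uncut library, the highest of which is 1.02, in all 8 cut libraries.

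H2A.Z is the other replacement class, and 2 of its 3 genes were called lower over all cut times. HTA8 was the histone gene with the smallest p for excision (all 4 times against uncut), at -1.58 ± 0.28 (adjusted p = 0.00268), and this call held in all 12 fits that left out 1 library. It was at 55.7 and 36.4 CPM in uncut CNQX and 30.5 and 37.7 CPM in uncut mock libraries. Its CNQX and mock values were 16.0 and 18.7 CPM at 30 min, 13.2 and 15.9 CPM at 4 h, 12.4 and 5.46 CPM at 14 h, and 18.1 and 10.3 CPM at 24 h. All 8 cut libraries lay below all 4 uncut ones, and HTA8 was the single core histone gene whose early libraries all lay below the uncut ones, a pattern in 9.98% of all genes. No core histone gene had all early libraries above all uncut ones, a pattern in 9.58% of all genes. At 30 min and 4 h alone it did not pass, at -1.18 ± 0.43 (adjusted p = 0.144) and -1.43 ± 0.44 (adjusted p = 0.103). Late over early was -0.55 ± 0.36 (adjusted p = 0.315).

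HTA9, the H2A.Z gene with the highest average count, was at 240.48 and 189.6 CPM in uncut CNQX and 204 and 251 CPM in uncut mock libraries. After excision the CNQX and mock libraries held 209 and 167 CPM at 30 min, 133 and 156 CPM at 4 h, 108 and 95.7 CPM at 14 h, and 116 and 56.8 CPM at 24 h. Its values at 4 h and later were below all uncut libraries, with -0.84 ± 0.22 for excision (adjusted p = 0.0179, but 0.0671 without the first uncut CNQX and 0.0571 without the second uncut mock library) and -0.84 ± 0.27 for late over early (adjusted p = 0.0437). HTA11 fell between early and late stumps by 1.33 ± 0.33 on the log2 scale (adjusted p = 0.0134), with early values of 47.2 to 55.8 CPM inside the uncut range of 41.6 to 73.4 CPM. The ratio of canonical H2A to H2A.Z counts was 1.41 ± 0.34 in late and 1.32 ± 0.10 in early stumps, against 0.816 ± 0.162 in uncut tips, with no overlap between cut and uncut libraries.

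Of the remaining variants, the heterochromatin histones HTA6 and HTA7 (H2A.W) were lower in late than in early stumps. HTA7 was at 144 and 86.9 CPM in uncut CNQX and 132 and 126 CPM in uncut mock libraries. In the CNQX and mock libraries it was at 142 and 149 CPM at 30 min, 93.4 and 136 CPM at 4 h, 68.3 and 65.1 CPM at 14 h, and 49.4 and 21.7 CPM at 24 h. Its late libraries lay below all others, at -1.43 ± 0.31 (adjusted p = 0.007), and HTA6 gave -1.77 ± 0.47 (adjusted p = 0.0181). The H2A.X genes did not pass, with -0.83 ± 0.44 for GAMMA-H2AX (adjusted p = 0.217) and -0.45 ± 0.31 for H2AXA (adjusted p = 0.351). GAMMA-H2AX was at 201 and 60.7 CPM in uncut CNQX and 114 and 63.6 CPM in uncut mock libraries, then with CNQX and with mock at 129 and 100.35 CPM at 30 min, 60.8 and 112 CPM at 4 h, 72.8 and 55.0 CPM at 14 h, and 85.6 and 24.8 CPM at 24 h, so that late, early and uncut libraries overlapped.

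HTA12 (H2A.W) and AT2G28720 (H2B) went the other way, at low counts. HTA12 had 6 and 2 counts in uncut CNQX and 2 and 2 counts in uncut mock libraries. In the CNQX and mock libraries it had 2 and 5 counts at 30 min, 5 and 2 at 4 h, 5 and 12 at 14 h, and 26 and 74 at 24 h. The counts at 24 h stood above all others. They gave 14.3 and 25.5 CPM, a log2 fold change over uncut tips of 3.86 ± 0.70 (adjusted p = 0.00138), and one of 2.27 ± 0.64 for late over early (adjusted p = 0.0248). The first call held in all 12 fits without 1 library and the second in 6 of them.

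AT2G28720 had 4 and 3 counts in uncut CNQX and 4 and 1 counts in uncut mock libraries. In the CNQX and mock libraries it had 12 and 4 counts at 30 min, 12 and 15 at 4 h, 6 and 18 at 14 h, and 24 and 43 at 24 h. In CPM, 1 of the 8 cut libraries, mock 30 min at 2.27 CPM, overlapped the uncut range of 0.424 to 2.53 CPM. The log2 fold change was 2.29 ± 0.56 for excision (adjusted p = 0.0123) and 3.40 ± 0.67 at 24 h (adjusted p = 0.00214), and both calls held in all 12 fits without 1 library. Fold changes against counts this low depend on the prior count of the fit. AT3G09480, an H2B-like gene, had 24 and 15 counts in uncut CNQX and 11 and 7 in uncut mock libraries, then with CNQX and with mock 18 and 13 at 30 min, 3 and 12 at 4 h, 9 and 2 at 14 h, and 10 and 0 at 24 h, and it passed no test.

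Several markers of differentiated cells were higher in late stumps, where most histone genes were lower. The 5 Casparian strip genes of the endodermis summed to 64.7 to 470 CPM in late stumps, against 3.97 to 21.8 CPM in early stumps and 3.80 to 8.48 CPM in uncut tips, with CASP2 at 0 in uncut tips. The 3 xylem genes summed to 62.6 to 241 CPM in late stumps, against 5.46 to 28.1 CPM in early stumps, with MYB46 at 0 there, and 2.53 to 28.5 CPM in uncut tips. The 3 photosynthetic genes summed to 53.0 to 381 CPM in late stumps, against 4.08 to 7.94 CPM in early stumps and 3.74 to 6.97 CPM in uncut tips. The 3 root hair genes overlapped between groups, at 35.1 to 165 CPM in late and 12.5 to 114 CPM in early stumps, against 17.4 to 25.4 CPM in uncut tips. Root cap genes, given above, were lowest in late stumps, with BRN2 at 0 there and SMB at 0 in early stumps. The 5 stem cell niche genes summed to 50.9 to 134 CPM in late and 68.3 to 163 CPM in early stumps, against 109 to 180 CPM in uncut tips. SCR had the highest value of the 5 in every library, and the sum hides genes that differed in direction. PLT1 had 9 to 43 counts in uncut tips, 0 to 1 in early and 0 to 6 in late stumps. PLT2 had 9 to 28 counts in uncut tips, 0 to 9 in early and 0 to 10 in late stumps. WOX5, at low counts, had 0 to 2 in uncut tips, 0 to 3 in early and 7 to 16 in late stumps. Mock 24 h had the lowest core histone level of all libraries (1246 CPM). Among late libraries it held the lowest sums of Casparian strip and root hair genes and the highest of photosynthetic genes. MYB36, a Casparian strip gene, was at 2.74 and 1.38 CPM in CNQX and mock 24 h, against 0.934 to 2.54 CPM in uncut tips. RHD6, a root hair gene, was at 6.53 to 14.3 CPM in late stumps and 7.94 to 16.8 CPM in uncut tips. The part of these markers in the fall of the histone genes was not tested.

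Against uncut tips, histone genes passed the test at 14 h and 24 h and not before. At 30 min and at 4 h, 0 of 37 histone genes passed edgeR's test, with 1 and 2 genes at an unadjusted p under 0.05, and DESeq2 and limma-voom called 0 as well. Of all genes, 4.43% were called at 30 min (3.23% higher and 1.2% lower) and 2.97% at 4 h (2.59% higher and 0.386% lower). The median log2 fold change of the histone genes was 0.20 at 30 min and -0.07 at 4 h, and both medians changed sign among the alternative fits. At 14 h, 4 genes (AT3G46320, AT5G59970, HTA8 and HTA9) were lower and 0 higher, with a median of -0.91, where 2.5% of all genes were called lower and 13.2% higher. That count was 0 without the mock 14 h library, 1 without CNQX 14 h, 2 without the first uncut CNQX, CNQX 30 min or mock 30 min library, 10 without CNQX 24 h or without mock 24 h, 11 without CNQX 4 h or without mock 4 h, and 13 without the second uncut CNQX library.

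At 24 h, 19 histone genes were lower and 2 higher than in uncut tips, with a median of -1.37, where 12.1% of all genes were called lower and 21.3% higher. The 19 were 7 of 8 H4, 3 of 5 H3.1, 1 of 4 canonical H2A, 4 of 8 canonical H2B, 3 of 3 H2A.Z and 1 of 3 H2A.W genes, and 0 of 3 H3.3 genes. The fall with the lowest log2 fold change was that of AT1G07820 (H4), at -2.25 ± 0.48 (adjusted p = 0.00368, and 0.0859 without mock 24 h). Without the mock 24 h library, which stood apart, 3 histone genes were called, 2 higher and 1 lower. Over all 4 times together, 6 were lower and 1 higher, where 25.5% of all genes were called, 11.9% lower and 13.6% higher. That count was 2 without the first uncut CNQX library, 3 without the second uncut mock or the mock 14 h library, 4 without mock 30 min, 14 without mock 4 h, 15 without the second uncut CNQX library and 16 without CNQX 24 h. The first uncut CNQX library held 4623 CPM of core histone counts, against 2524 to 3242 CPM in the other 3 uncut libraries.

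**Figure D5:**
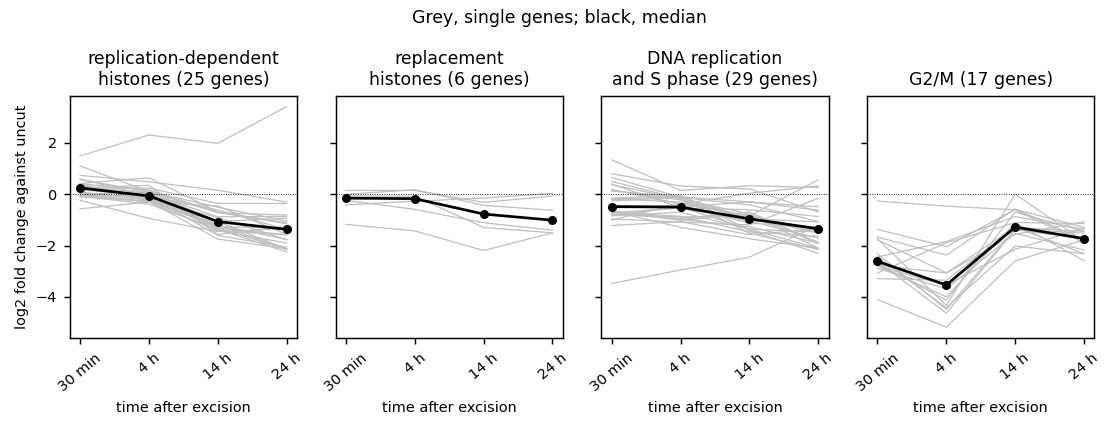
Log2 fold change against uncut tips at 4 times after excision for replication-dependent histones, replacement histones, S phase genes and G2/M genes, with single genes in grey and their median in black. The histone medians leave 0 between 4 h and 14 h, and the G2/M median is lowest at 4 h, at -3.53.

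Genes of other cell cycle phases had another time course. Of 17 G2/M genes, which act in mitosis and its entry, 5 were lower at 30 min (median -2.62), 7 at 4 h (median -3.53), 2 at 14 h (median -1.28) and 5 at 24 h (median -1.73), and 0 were higher at any time. The counts at single times turned on single libraries: at 30 min they ran from 0 without CNQX 30 min or mock 30 min to 10 without CNQX 24 h or mock 24 h, and at 4 h from 0 without CNQX 4 h to 14 without CNQX 24 h or mock 24 h. At 14 h they were 0 without CNQX 14 h, mock 14 h or the second uncut mock library, and at 24 h 0 without mock 24 h and 12 without CNQX 24 h. Over all times together 15 of 17 were lower, which changed by less than 1.5 times whichever library was left out. Between early and late stumps 4 of them, CDC20.2, CYCB1;1, CYCB1;3 and HINKEL, rose and 0 fell, with a median of 1.43, opposite in sign to the median of the histone genes. That count was 0 without CNQX 4 h or mock 14 h, 1 without CNQX 14 h, CNQX 30 min or mock 30 min, 2 without CNQX 24 h, where 1 gene fell, 8 without mock 4 h and 10 without mock 24 h. CYCB1;1, a mitotic cyclin, was at 20.3 and 16.3 CPM in uncut CNQX and 26.1 and 16.1 CPM in uncut mock libraries. With CNQX and with mock it had 3.51 and 2.83 CPM at 30 min, 0 and 1.53 CPM at 4 h, 9.90 and 5.46 CPM at 14 h, and 7.13 and 4.82 CPM at 24 h. It stood lowest at 4 h, when AT5G59970 was within its uncut range or just below it, and late over early was 2.07 ± 0.61 (adjusted p = 0.0295).

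Of 29 genes of DNA replication and S phase, 0 were called at 30 min or at 4 h (3 and 2 at an unadjusted p under 0.05, and medians of -0.49 and -0.50), 1 was lower at 14 h and 9 were lower at 24 h (median -1.35). The count at 24 h was 1 without mock 24 h and 19 without CNQX 24 h. Summed over the 29 genes, S phase stood at 779 CPM in CNQX 24 h and 303 CPM in mock 24 h, and at 684 and 616 CPM in CNQX 14 h and mock 14 h. The count at 14 h was 0 to 8 when single libraries were left out, with 8 without CNQX 24 h or without mock 24 h, 4 without CNQX 4 h or mock 4 h, and 0 without either 14 h library, mock 30 min, the first uncut CNQX or either uncut mock library. Between early and late stumps 4 of the 29 fell, CDC45, CDT1A, CYCA3;2 and ICU2, and 0 rose, with a median of -0.67. That count was 1 without mock 14 h, 2 without CNQX 14 h, CNQX 30 min, mock 24 h or mock 4 h, 7 without CNQX 4 h and 14 without CNQX 24 h. All 4 late libraries lay below all 4 early ones in 6 of 29 S phase and 0 of 17 G2/M genes, against 10.4% of all genes tested. The early libraries all lay below the uncut ones in 8 of 29 S phase and 16 of 17 G2/M genes, against 9.98% of all. The S phase sum was 691 to 976 CPM in early stumps and 1066 to 1394 CPM in uncut tips, although 0 of its genes were called at 30 min or 4 h. MCM2, a subunit of the replicative helicase, was at 18.1 to 35.7 CPM at 14 h and 5.16 to 34.0 CPM at 24 h, against 48.1 to 68.7 CPM in uncut tips, and its early values of 25.4 to 42.1 CPM were also below every uncut one. Its excision value was -1.21 ± 0.33 (adjusted p = 0.0195). CDT1B, a factor that licenses replication origins, fell after excision by 2.53 ± 0.51 on the log2 scale (adjusted p = 0.00518).

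Histone chaperones carry new histones to DNA. Of 6 chaperones coupled to replication, 1, AT4G37210, was lower over all times, and 2, AT4G37210 and ASF1B, were lower at 24 h, at -1.33 ± 0.38 (adjusted p = 0.0176) and -2.32 ± 0.63 (adjusted p = 0.0138). Without mock 24 h neither passed, at an adjusted p of 0.211 and 0.207, and ASF1B was at 8.23 CPM in CNQX 24 h and 1.38 CPM in mock 24 h. The count over all times was 2 without the second uncut CNQX library and 3 without CNQX 24 h or mock 4 h. Late over early, 0 of the 6 passed in edgeR, with 2 at an unadjusted p under 0.05 and a median of -0.63. Of 12 other chaperones, NAP1;1, NRP1 and UBN2 were lower over all times, with -1.29 ± 0.27 for NAP1;1 (adjusted p = 0.00548), a count that was 1 without the first uncut CNQX, mock 14 h, mock 24 h or mock 30 min library and 5 without the second uncut CNQX, mock 4 h or CNQX 24 h library. Late over early, 0 of the 12 passed, 0 had an unadjusted p under 0.05, and the median was 0.03. The linker histone AT2G30620 and the centromeric histone CENH3 were lower at 24 h, at -1.02 ± 0.32 (adjusted p = 0.0255) and -2.02 ± 0.69 (adjusted p = 0.0384), and the linker histone AT1G06760 gave -0.18 ± 0.31 (adjusted p = 0.681). Without mock 24 h, AT2G30620 and CENH3 had an adjusted p of 0.2 and 0.337, and CENH3 was at 4.39 CPM in CNQX 24 h and 1.03 CPM in mock 24 h. Of this list, 1 gene was called at 24 h without CNQX 24 h, the first uncut CNQX or either uncut mock library.

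No histone gene passed the test for CNQX against mock. In uncut tips, in all cut roots, in early stumps and in late stumps, edgeR called 0 of 37 histone genes and 0% of all genes, and DESeq2 and limma-voom called 0 histone genes too. At an unadjusted p under 0.05 there were 1, 0, 0 and 7 histone genes, beside 629, 327, 184 and 1669 of all genes. In late stumps the 7 had higher values with CNQX than with mock, with the smallest unadjusted p for HTA6 at 1.68 ± 0.53 and AT3G45930 at 1.64 ± 0.52 (adjusted p = 0.42 for both). AT3G09480 had the highest fitted value of the 7, at 3.55 ± 1.18 (adjusted p = 0.435), from 9 and 10 counts with CNQX against 2 and 0 with mock, and a fitted value at such counts depends on the prior count. The median CNQX over mock value of the histone genes was 0.63 in late stumps, with 33 of 37 above 0, and -0.18 in early stumps, with 8 of 37 above 0. With 1 library left out, the late median ran from 0.26 to 1.02 and the early median from -0.45 to 0.07. The difference of these effects, late minus early, had 0 genes past the threshold and 5 histone genes at an unadjusted p under 0.05, with a median of 0.82; DESeq2 and limma-voom called 0 as well.

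Time by time, the median log2 ratio of CNQX to mock libraries over the 37 genes was 0.26 in uncut tips, 0.09 at 30 min, -0.45 at 4 h, 0.25 at 14 h and 0.94 at 24 h. CNQX had the higher value for 31, 25, 3, 28 and 31 genes. Of all genes, close to 50% (46.9% to 52.9%) were higher with CNQX at each time. For uncut tips the value is the mean of 2 libraries. The first uncut CNQX library held the most core histone CPM of the 4 uncut libraries, 4623, and the second the least, 2524. With 1 library left out, the fitted median for uncut tips ran from -0.29 to 0.60, so its sign was not stable. The cut libraries have no replicate within a time, and the value at 24 h is set against the mock library that stood apart. Within each treatment, 31 of 37 genes were lower late than early with CNQX (median log2 ratio -0.74) and 33 of 37 with mock (median -1.53), and 30 genes were lower in both. Both late libraries lay below both early ones for 24 of 37 genes with CNQX (20.7% of all genes) and for 33 of 37 with mock (28.3% of all genes).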

How the data were processed

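The authors deposited raw read counts for 32833 loci in each of 12 libraries, with no normalization, per the file headers and values. The submitters' processing notes name HISAT2, DESeq2 and TAIR10. No version, counting program, strandedness or read length is given in the sources used here. Rows that name no gene stayed out of every total. Reads without a feature were 18.4% to 29.4%, and reads aligned in more than 1 place 37.6% to 65.3%, of what each file lists, and the mock 24 h library held the highest and the lowest of these.

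The gene test was that of edgeR 4.0.16 in R 4.3.3 (quasi-likelihood F test, TMM scaling, filterByExpr with a minimum count of 10, 16820 genes kept). All 12 libraries entered a fit of time, CNQX in uncut and CNQX in cut roots (7 coefficients, 5 residual degrees of freedom). A second fit split CNQX in cut roots into early and late (8 coefficients, 4 degrees). With 1 library per treatment and time, cut groups have no spread of their own, and all groups share 1 estimate of it. The first fit takes the CNQX effect as equal at all cut times, and its variation between times counts as spread. The median CNQX over mock value of the histone genes was -0.45 at 4 h and 0.94 at 24 h. Benjamini-Hochberg adjustment covered every gene that was tested, with 0.05 as the threshold, and ± after a log2 fold change is its standard error. The first fit was run on simulated counts for late against early alone. The other comparisons and the second fit were not tested in this way. The 30 min and 4 h libraries are called early, the 14 h and 24 h libraries late.

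The alternatives were DESeq2 1.42.0, RLE factors, limma-voom (limma 3.58.1), 2 other filters, organelle and ribosomal RNA loci left out, the replicate number as a block, and each library left out. CNQX late minus early was added after seeing the data. The histone genes, the other gene lists and the comparisons were chosen with earlier results of these data known. Values in every library are given for the gene of each class with the highest average count and the one with the smallest p for excision. Sequences, coordinates and names came from RefSeq's TAIR10.1, whose loci were matched by identifier; the counts carry no coordinates.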

Additional observations from a re-analysis of the deposited data

How the results depend on the processing

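For late against early stumps the number of histone genes called stayed within 1.5 times the reported 23 under every other normalization, filter and model, and ran from 2 to 29 when 1 library was left out. At 24 h the reported 21 likewise ran from 3 to 28. At 14 h the reported 4 became 9 with DESeq2, 7 with RLE factors, with limma-voom, with at least 10 counts in 4 libraries or with organelle and ribosomal RNA loci left out, and 15 with no filter, and it ran from 0 to 13 without single libraries. For excision the reported 7 became 12 with no filter and ran from 2 to 16. Counts for 30 min, 4 h and every CNQX comparison stayed at 0. With the replicate number as a block, the counts were 11 for excision, 10 at 14 h, 28 at 24 h and 25 for late against early, and AT2G28720 lost its call for excision (adjusted p = 0.0758). The numbers exist for the uncut libraries, whose same-numbered pairs correlated at 0.357; with 2 pairs they are not taken as paired. Without replicate 1 of uncut CNQX, the excision values of GAMMA-H2AX and HTA10 reversed to 0.047 and 0.229, and neither passed in any fit; without another library they reached -0.875 and -0.330. The cause was not tested. For the 15 histone genes picked by count or p in each class, 246 values kept direction and call for excision and 253 for late against early, 15 and 5 gained a call, 21 and 26 lost one, and 2 and 0 reversed. Over all 37 genes tested, 8 changed sign in some fit for excision and 1 (HTB1, up to 0.080 without mock 24 h) for late against early, none of them with a call. For the 2 ratios of summed counts, only the mean log2 ratio of cut minus uncut libraries was recomputed. That difference moved by less than the spread between uncut libraries of a treatment. For replication-dependent to replacement counts the difference was itself smaller than this spread. The check therefore could not show whether it holds. The log2 ratio of replication-dependent to replacement counts averaged 1.00 ± 0.57 in cut and 1.19 ± 0.30 in uncut libraries (SD). That of H3.1 to H3.3 averaged -1.23 ± 0.94 and -0.68 ± 0.40. The contrast of late with early ratios was not part of this check. A fit without a cut library leaves 1 library at its time, which is assumed to vary like the others. Depth limits HTA12, AT2G28720 and AT3G09480, whose counts were near the floor in several libraries.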

Other observations

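Core histone genes often lay close together. Of the pairs of neighbouring core histone genes less than 50 kb apart, 10 were found, and 6 of them joined an H2B gene with an H4 gene, as HTB4 and AT5G59970 (17.7 kb apart on chromosome 5, with 5 protein-coding genes between them). AT2G28720, which rose, and HIS4, which fell late, lie 1.54 kb apart on chromosome 2, with 1 gene between them.

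Of the 9 genes with the octamer CGCGGATC in their promoter window, 7 were called lower in late than in early stumps (median log2 fold change -1.61), against 15 of 28 genes without it (median -1.16). For the hexamer ACGTCA the counts were 8 of 12 with it (median -1.28) and 14 of 25 without it (median -1.27). Over all genes tested, 6.74% were called lower. The octamer stood in 3 of 5 H3.1 and 0 of 8 canonical H2B promoters, and the hexamer in 8 of 8 canonical H2B promoters. Genes with and without a motif therefore also differ in histone class. The counts by motif are descriptions of few genes and carry no test. An E2F-type site (TTTCCCGC, TTTGGCGC, TTTCGCGC or TTTGCCGC, either strand) stood in 3 of 38 windows (7.89%) and in 1.76% of all promoters, and the telobox AAACCCTA in 2 of 38 (5.26%) and in 6.22% of all.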
